A study of Homo sapiens with 40 samples.

Results

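The DREAM and MuvB complex genes were examined as 9 genes: LIN9, LIN37, LIN52 and LIN54 of the MuvB core, the MuvB partners MYBL2 (B-MYB) and FOXM1, the DP proteins TFDP1 and TFDP2, and the kinase gene DYRK1A. Their chromatin was followed in EndoC-βH3, a human beta-cell line made from fetal pancreas and immortalized by 2 transgenes, telomerase (hTERT) and the large T antigen of SV40. Both transgenes can be cut out by a tamoxifen-activated Cre recombinase. The non-senescent cells kept the transgenes, and the senescent cells had received 4-hydroxytamoxifen (4-OHT) for 3 weeks, so that senescence, drug treatment and loss of the transgenes cannot be told apart. The labels give both groups as WT, and all libraries came from this single cell line. H3K27ac is an acetylation of histone H3 found at promoters and enhancers in use, and CTCF is a zinc-finger protein that anchors chromatin loops. Each had been measured by ChIP-seq in 3 non-senescent and 3 senescent libraries.

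Members were selected by position. A peak was assigned to a gene if it lay within 2 kb of a GENCODE 44 start site of the gene ("promoter"), inside the gene ("gene body"), or if the gene's start site was the nearest of all genes and within 100 kb ("nearby"). This gave 30 of 51489 H3K27ac peaks, of which 12 were promoter, 15 gene-body and 3 nearby peaks. It gave 24 of 51457 CTCF peaks, of which 9 were promoter, 11 gene-body and 4 nearby peaks. All 9 genes, of 20020 protein-coding genes, had an H3K27ac promoter peak, as did 13059 genes in all. LIN37 had no CTCF peak.

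The MuvB core is a set of proteins that sits at the promoters of cell-cycle genes and changes partners through the cycle. In quiescent and senescent cells it joins the pocket proteins p130 (RBL2) or p107 (RBL1), a repressor E2F and a DP protein to form DREAM, which keeps these genes off. In dividing cells the core leaves the pocket proteins and works with B-MYB and then FOXM1 to switch on genes of mitosis. LIN54 binds DNA at the CHR element, LIN52 links the core to its partners and is phosphorylated by DYRK1A, and DP proteins pair with E2F to bind DNA. SV40 large T, which the non-senescent cells carried, is known to bind the pocket proteins.

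The files hold a single test result per peak, so the values of single libraries and their total depth are not analysed here. Each peak has the mean read count over the 6 libraries after scaling by the authors' size factors, the log2 fold change of senescent over non-senescent cells, its standard error (SE), and a p-value from the authors' DESeq2 test, adjusted over all 51489 H3K27ac peaks and over the 39485 CTCF peaks that have an adjusted value. A peak was called lost or gained at a fold change above 1.5 (0.58 on the log2 scale) with an adjusted p under 0.05 for H3K27ac or under 0.2 for CTCF, the study's own thresholds. Nothing states that the libraries came from separate cultures, so the SE and p measure the spread between these libraries, which may be technical. In such bulk signal, fewer cells with a mark and less of the mark per cell cannot be told apart, and scaling by size factors gives changes relative to the other peaks. As a check of the cell type, 11 of 11 beta-cell marker genes had an H3K27ac promoter peak, at 129 to 627 mean counts per kb, and none was called (DESeq2; 5 were higher and 3 lower at an unadjusted p under 0.05). Of 12 marker genes of acinar, duct, blood, endothelial and fibroblast cells, 2 had one, the acinar CPA1 (298 per kb, not called) and the duct KRT19 (122 per kb), which was lost with a log2 fold change of -0.74.

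H3K27ac fell at the promoters of 3 of the 9 genes in senescent cells and rose at none. The 3 were MYBL2, LIN9 and FOXM1. At an unadjusted DESeq2 p under 0.05, 1 of the members' promoter peaks was higher and 5 were lower. Taking for each gene its promoter peak of highest mean count, 8.94% of the 13059 genes were lost and 3.15% gained. Over all promoter peaks, 3 of the members' 12 were lost and 0 gained, beside 9.81% lost and 4.53% gained in the whole table. The median log2 fold change was -0.23 over the 9 genes and 0.038 over all 13059, where the quartiles were -0.19 and 0.22.

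**Figure D1:**
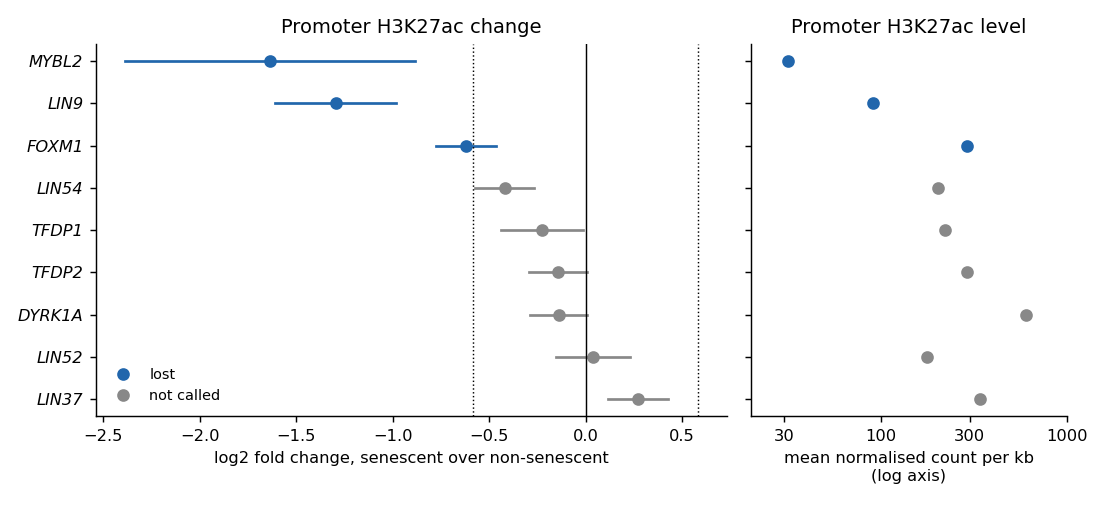
H3K27ac at the main promoter peak of each gene. For LIN37 this peak covers none of its own start sites. Left, the log2 fold change of senescent over non-senescent cells (points) with its 95% Wald interval (lines), a solid line at no change and dotted lines at the 1.5-fold threshold. Right, the mean normalised count per kb over the 6 libraries, on a log axis. MYBL2, LIN9 and FOXM1 (blue) were lost, the other 6 (grey) were not called, and MYBL2 had the lowest level of the 9, at 31.5 counts per kb.

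MYBL2 (chr20:43667019-43716495 on hg38, plus strand), which encodes the B-MYB subunit of activating MuvB, had the lowest promoter fold change of the 9 genes. Its peak at chr20:43666931-43667867 covers both annotated coding start sites and an exon. The mean normalised count was 29.5, which with the fold change corresponds to about 44.6 counts per non-senescent and 14.3 per senescent library. The log2 fold change was -1.64 ± 0.38 (SE, 3 libraries per state, DESeq2 adjusted p = 1.17e-04), a 3.11-fold lower level. Of the 13059 genes, 109 had a lower value. The peak was thin, at percentile 0.436 of promoters per kb. It was not called in a test against a fold change of 1.5, and could not be called where at least 50 mean counts were required. A second promoter peak just upstream (chr20:43666409-43666908, with a mean count of 26.4) had a log2 value of -0.52 ± 0.38 (adjusted p = 0.28) and was not called.

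LIN9 (chr1:226231149-226309869, minus strand), a scaffold subunit of the MuvB core, was the only core gene with a lost promoter. The peak at chr1:226308124-226310147 covers all 6 coding start sites, and its mean count was 183. The state means were about 260 counts in non-senescent and 106 in senescent libraries. The log2 fold change was -1.30 ± 0.16 (DESeq2 adjusted p = 1.58e-14), a 2.46-fold lower level, and the call held in the test against a fold change of 1.5. The LIN9 and MYBL2 values differed by 0.34 with a 95% interval of -0.47 to 1.16, so their order is not resolved.

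The sequences of these 2 most reduced promoters are shown for the exon-free stretch upstream of a RefSeq start site (RefSeq windows on GRCh38.p14). The MYBL2 stretch is chr20:43666864-43667018 on the plus strand and ends where the gene begins, and the LIN9 stretch is chr1:226309870-226310017 on the minus strand. No letters are in capitals, because none of the 3 motifs searched, described further on, was found in them. The LIN9 stretch belongs to an upstream start site (chr1:226309767). A CHR match of LIN9 lies at another start site, chr1:226309164, and is shown further on.
MYBL2: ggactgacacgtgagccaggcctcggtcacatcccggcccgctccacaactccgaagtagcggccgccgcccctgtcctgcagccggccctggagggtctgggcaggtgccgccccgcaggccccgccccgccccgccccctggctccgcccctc
LIN9: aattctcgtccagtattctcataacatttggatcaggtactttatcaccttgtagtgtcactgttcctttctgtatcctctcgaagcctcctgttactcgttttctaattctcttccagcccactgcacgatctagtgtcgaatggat

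FOXM1 (chr12:2857680-2877174, minus strand) encodes the forkhead factor that follows B-MYB on MuvB in late G2. Its promoter peak at chr12:2875741-2878925 (923 mean counts, 289.7 per kb) also covers the start of the neighbouring gene RHNO1, transcribed the other way. The state means were about 1118 and 727 counts, with a log2 fold change of -0.62 ± 0.079 (DESeq2 adjusted p = 1.29e-13), a 1.54-fold lower level. This lies just past the fold threshold, with a 95% interval of -0.78 to -0.47, and the call did not hold at a fold change above 2 or in the test against 1.5. The signal cannot be divided between FOXM1 and RHNO1.

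The other 3 MuvB core genes were not called at their promoters. LIN54 (chr4:82909973-83012926, minus strand), the DNA-binding subunit, had a wide promoter peak at chr4:83008811-83014494 over all 6 coding start sites, with means of about 1317 counts in non-senescent and 985 in senescent libraries. Its log2 fold change of -0.42 ± 0.077 passed the p threshold (DESeq2 adjusted p = 5.81e-07) and missed the fold threshold, and its 95% interval ran from -0.57 to -0.27. LIN52 (chr14:74084956-74201493, plus strand) had about 530 and 545 counts at chr14:74083507-74086539, a peak that also covers the start of ALDH6A1. The log2 fold change there was 0.038 ± 0.097 (adjusted p = 0.79), close to the middle of all genes.

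LIN37 (chr19:35748361-35754519, plus strand), a core subunit needed for repression, lies in a dense cluster of genes, and its 2 promoter peaks have to be read apart. The peak over its own start sites, chr19:35747542-35749395, had means of about 149 and 150.0 counts and a log2 fold change of 0.010 ± 0.16 (adjusted p = 0.97). The deeper peak in the 2 kb window, chr19:35744002-35746913 (997 mean counts), covers none of LIN37's start sites and lies over those of PSENEN and U2AF1L4. Its log2 fold change was 0.27 ± 0.079 (adjusted p = 0.0025), under the fold threshold. Whichever peak is used, LIN37 was not called.

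The DP genes and DYRK1A were not called either. TFDP1 (chr13:113584721-113641473, plus strand) had about 621 and 531 counts at chr13:113584228-113586832, and a log2 fold change of -0.23 ± 0.11 (DESeq2 adjusted p = 0.085). TFDP2 (chr3:141944428-142149544, minus strand) had about 1067 and 967 counts at its upstream promoter, chr3:142146987-142150470, with a log2 fold change of -0.14 ± 0.077 (adjusted p = 0.13). A second TFDP2 promoter peak at an internal start site, chr3:142127610-142129660 (141 mean counts), had a value of -0.027 ± 0.18. DYRK1A (chr21:37365573-37526358, plus strand) had the deepest promoter of the 9, chr21:37365081-37369107, with about 2559 and 2323 counts and a level of 606 per kb, at percentile 99.1 of genes. Its log2 fold change was -0.14 ± 0.075 (adjusted p = 0.13). For LIN54, LIN52, LIN37, TFDP1, TFDP2 and DYRK1A the 95% interval of the fold change at the main promoter peak lay inside the 1.5-fold limits on both sides.

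In the order of promoter fold changes (MYBL2, LIN9, FOXM1, LIN54, TFDP1, TFDP2, DYRK1A, LIN52, LIN37), 7 of the 8 neighbouring pairs had a 95% interval of the difference that held 0. The exception was FOXM1 above LIN9, by 0.68 with an interval of 0.33 to 1.03. Over all 36 pairs, 10 intervals held 0. These intervals treat the SEs of both peaks as independent, although the peaks come from the same libraries, and they are not adjusted for the number of pairs. LIN37 is placed by its deeper peak, which lies over the start sites of PSENEN and U2AF1L4. The peak over LIN37's own start sites had a value of 0.010, below the 0.038 of LIN52.

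Motif matches at the promoters were read in RefSeq windows from 250 bases before to 50 after each start site, on both strands. The windows hold 8 of the 9 genes, all but FOXM1. The E2F letters TTTNNCGC were found in the windows of 3 of the 8 genes (LIN52, TFDP1 and DYRK1A), beside 6.89% of 35116 windows of all genes. The CHR letters TTTGAA were found for 5 (LIN9, LIN37, LIN54, TFDP2 and DYRK1A), beside 15.2% of windows, and the CCAAT box letters CCAAT for 4 (LIN37, LIN52, TFDP2 and DYRK1A), beside 34.6%. Genes with several start sites have several windows, so the shares per gene and per window are not on 1 base. MYBL2 had none of the 3. A match is a string of letters and not a bound site.

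Shown with their flanking bases are 4 of these CHR and E2F matches, chosen to show 2 core genes with CHR letters and 2 genes with E2F letters, the match in capitals. LIN37, TFDP2 and DYRK1A have further CHR matches, and DYRK1A a further E2F match. The 4 are the CHR of LIN9, across its start site (chr1:226309150-226309179, minus strand), the CHR of LIN54, 100 bases before its start (chr4:83010878-83010963, minus strand), the E2F letters of LIN52, 25 bases before its start (chr14:74084891-74084955, plus strand), and those of TFDP1, read on the opposite strand 120 bases before its start (chr13:113584593-113584680, plus strand).
LIN9: cggcgggcagccTTTGAAaaagcggcgcgg
LIN54: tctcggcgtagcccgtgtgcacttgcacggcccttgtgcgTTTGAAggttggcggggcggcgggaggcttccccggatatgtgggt
LIN52: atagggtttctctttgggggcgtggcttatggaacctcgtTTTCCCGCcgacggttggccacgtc
TFDP1: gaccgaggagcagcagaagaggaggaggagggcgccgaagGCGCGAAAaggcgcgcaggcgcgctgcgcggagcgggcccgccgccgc

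Of the 5 genes with a CHR match, the promoter of 1, LIN9, was lost, and those of LIN37, LIN54, TFDP2 and DYRK1A were not called. None of the promoters of the 3 genes with an E2F match (LIN52, TFDP1 and DYRK1A) was called. The CHR matches of TFDP2, and the CHR and E2F matches of DYRK1A, lie at internal start sites outside the H3K27ac promoter peaks. No H3K27ac peak lies at those start sites, so for these matches the motif and the fold change come from different promoters. MYBL2, with no match, had the lowest fold change. FOXM1, also lost, had no window and enters none of these counts. The share of lost promoters among all genes with a match was not computed, so the counts have no background.

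Away from promoters, the members had 18 H3K27ac peaks, of which 3 were lost and 2 gained. Of all peaks outside promoters in the deposited table, 14.4% were lost and 11.3% gained. The members' 3 and 2 of 18 are close to these shares. The lost peaks lay at LIN52 and MYBL2 and the gained peaks at TFDP1 and DYRK1A. With promoters included, 6 of 30 peaks were lost and 2 gained, beside 13.1% and 9.47% of all H3K27ac peaks.

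**Figure D2:**
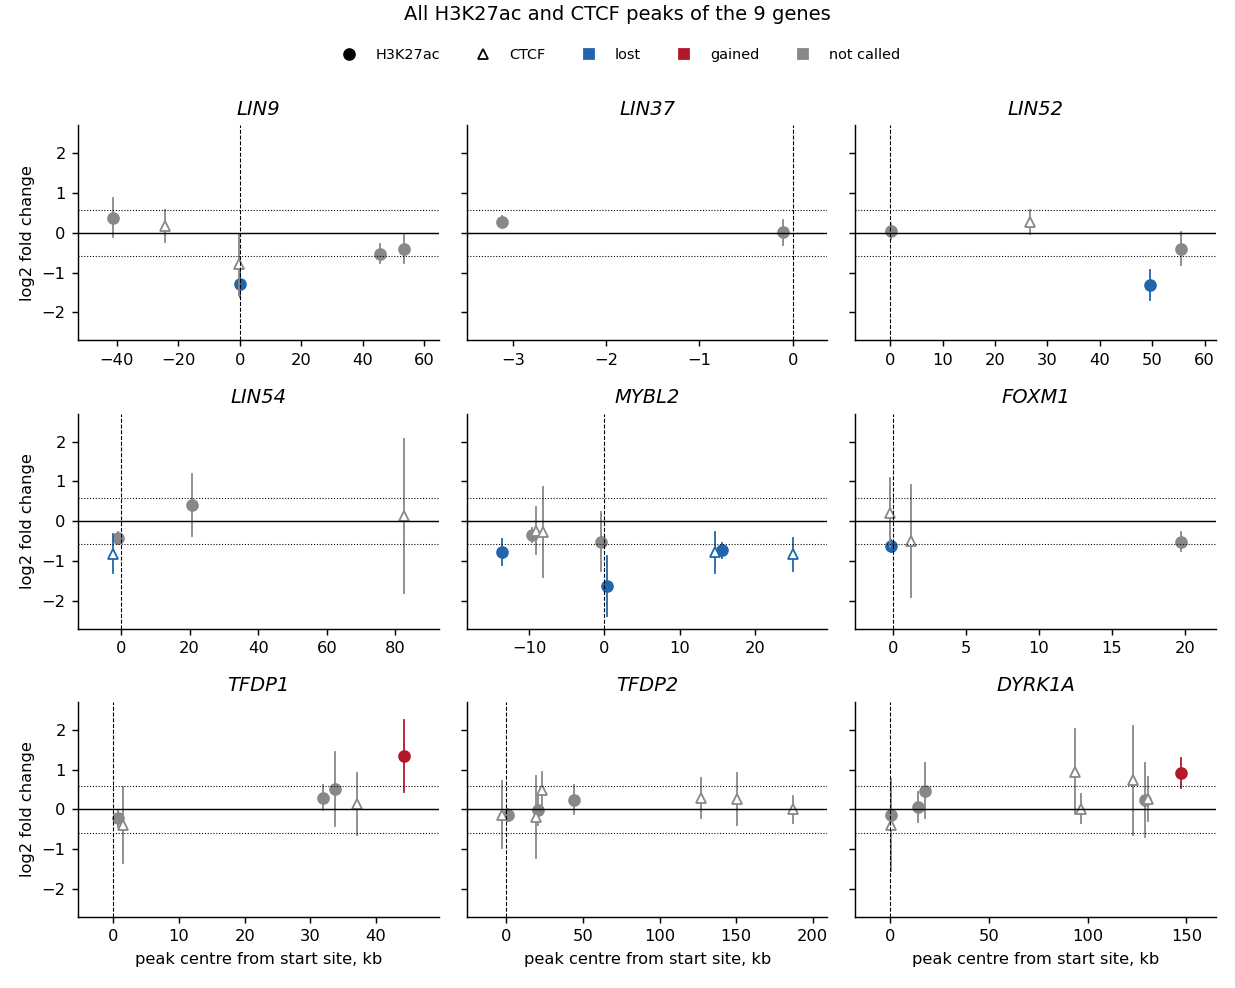
Every H3K27ac peak (circles) and CTCF peak (open triangles) of the 9 genes, 1 panel per gene. The x axis is the distance in kb of the peak centre from the gene's canonical start site, positive in the direction of transcription, and the y axis the log2 fold change of senescent over non-senescent cells with its 95% Wald interval. Colours mark lost (blue), gained (red) and uncalled (grey) peaks, and dotted lines the 1.5-fold threshold. All 9 peaks of MYBL2 lie below 0 and 5 are called lost, but some of the other intervals hold 0. Its CTCF peaks partly overlap its H3K27ac peaks, so the 9 are not independent, and the share of genes with all peaks below 0 was not computed. The called H3K27ac peaks far inside TFDP1 and DYRK1A lie above 0.

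MYBL2 had the most called peaks. A gene-body peak at chr20:43680839-43684656, 15.6 kb past the start and overlapping an exon, had about 633 counts in non-senescent and 381 in senescent libraries. It had a log2 fold change of -0.73 ± 0.099 (DESeq2 adjusted p = 2.22e-12) and overlapped a listed enhancer in both states. An intergenic peak 12.6 kb upstream (chr20:43652502-43654394), in no listed enhancer, had about 202 and 118 counts and a value of -0.78 ± 0.17 (adjusted p = 2.04e-05). The deepest peak outside the promoter, 8.15 kb upstream (chr20:43656196-43658871, 898 mean counts), had a value of -0.35 ± 0.088 (adjusted p = 3.13e-04), under the fold threshold, and was listed as an enhancer in non-senescent cells only. All 5 H3K27ac peaks of MYBL2 thus had values below 0, 3 of them past the threshold. The 95% interval of the promoter peak just upstream of the start held 0 (-1.26 to 0.22).

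The LIN52 promoter was not called, but an intronic peak 49.5 kb into the gene was lost. At chr14:74133662-74135313 it had about 167 counts in non-senescent and 67.6 in senescent libraries. The log2 fold change was -1.30 ± 0.19 (DESeq2 adjusted p = 2.74e-10), a 2.47-fold lower level, and the call held in the test against a fold change of 1.5. The region is a listed enhancer in non-senescent cells only. The difference between the promoter and the intronic peak of LIN52 was 1.34 with a 95% interval of 0.92 to 1.76, taking the SEs as independent. The intronic peak was chosen because it was called lost, so this interval is not a test of a difference. A further intronic peak (chr14:74139817-74141166), listed as an enhancer in senescent cells only, had a value of -0.40 ± 0.21 (adjusted p = 0.13).

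The 2 gained peaks lay deep inside genes. In DYRK1A the peak at chr21:37513084-37515127, 147 kb past the start and overlapping an exon, rose from about 81.6 to 155 counts, with a log2 fold change of 0.92 ± 0.19 (DESeq2 adjusted p = 1.34e-05). It overlapped a listed enhancer in senescent cells only. In TFDP1 an intronic peak at chr13:113628653-113629355 rose from about 13.6 to 34.6 counts, with a log2 fold change of 1.34 ± 0.46 (adjusted p = 0.011). This peak had a mean count of 24.1, the start site nearest to it is that of ATP4B, and it was not called at an adjusted p under 0.01 or in the test against a fold change of 1.5. Neither gene's promoter was called.

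The deepest gene-body peaks of the other genes were not called. In LIN9 an intronic peak at chr1:226261550-226265138 (285 mean counts), nearer to the start of MIXL1 than to that of LIN9, had a value of -0.52 ± 0.12 (adjusted p = 1.58e-04) and overlapped enhancers listed in both states. At the 3′ end of FOXM1 a peak over the promoter of TEX52 (chr12:2855958-2858882, 342 mean counts) had a value of -0.51 ± 0.12 (adjusted p = 1.64e-04). The TFDP2 gene-body peak (chr3:142104404-142106239, 127 mean counts), a listed enhancer in senescent cells only, had a value of 0.25 ± 0.19 (adjusted p = 0.29). The LIN54 intronic peak (chr4:82989675-82990362, 26.3 mean counts) had a value of 0.41 ± 0.40. Over the 15 gene-body peaks, 9 fold changes were above 0 and 6 below.

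In the deposited lists of enhancers, 9 of 14886 regions of non-senescent cells and 8 of 13076 of senescent cells fell at these genes. At least 1 region lay at 6 of the 9 genes in each list, beside 31.2% and 29.7% of all 20020 genes by the same assignment. These shares were not adjusted for gene length, and the members ran from 6.16 kb (LIN37) to 205 kb (TFDP2). Of the members' regions, 5 in each list overlapped a region of the other state. LIN37, LIN54 and FOXM1 had none in either list. The 4 regions listed for non-senescent cells alone lay at LIN9 (2), LIN52 and MYBL2, and the 3 for senescent cells alone at LIN52, TFDP2 and DYRK1A. In the whole lists, 29.4% of the non-senescent and 20.5% of the senescent regions were listed in that state alone. None of 2435 regions listed as bound by Rb in senescent relative to non-senescent cells fell at the 9 genes, where 3.76% of all 20020 genes had such a region by the same assignment, so that none among 9 is close to the background. Distances to the nearest Rb region were measured from the nearer edge of each gene. They were 75.6 kb for TFDP2, 209 kb for MYBL2, and 925 to 4353 kb for the other 7 genes. That list came from a comparison with non-senescent cells, so a site bound in both states would not be in it.

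CTCF binding fell at 3 of the members' 24 peaks and rose at none. At an unadjusted DESeq2 p under 0.05, 1 peak was higher, at a TFDP2 promoter, and 4 were lower. Of the 24, 16 had an adjusted p in the authors' table, and the other 8, with 4.65 to 17.7 mean counts, had none and could not be called. Of all CTCF peaks with an adjusted p, 4.28% were lost and 2.99% gained. At promoters, 1 of 9 member peaks (3 of them without an adjusted p) was lost, beside 5.71% lost and 0.63% gained in the table. Outside promoters, 2 of 15 (5 without an adjusted p) were lost, beside 3.88% lost and 3.64% gained.

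**Figure D3:**
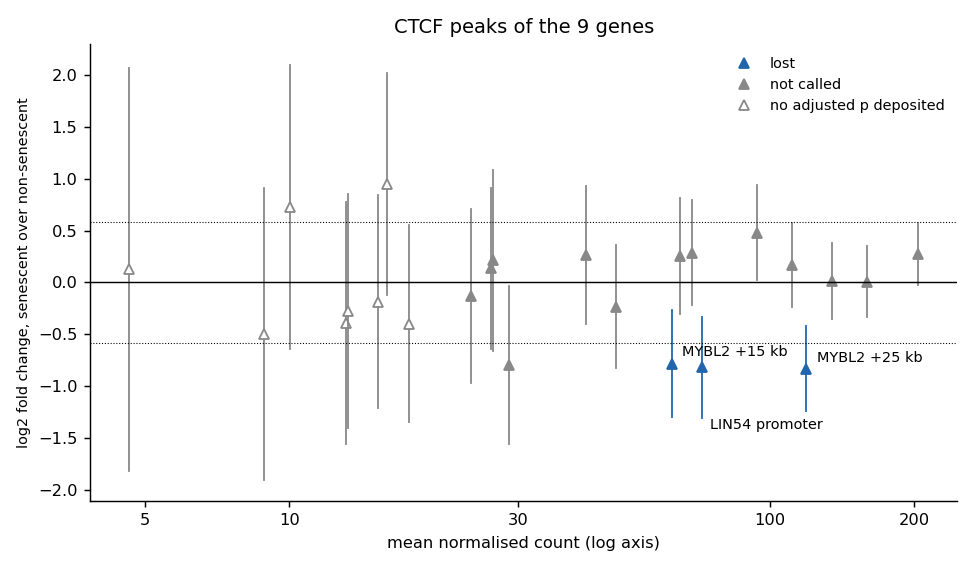
CTCF peaks of the 9 genes. The x axis is the mean normalised count over the 6 libraries (log axis) and the y axis the log2 fold change of senescent over non-senescent cells with its 95% Wald interval. Dotted lines mark the 1.5-fold threshold. The 3 lost peaks (blue) had 62.5 to 119 mean counts, and peaks without an adjusted p (open) all had 17.7 or fewer.

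The lost CTCF peaks lay at MYBL2 and LIN54. In MYBL2 the peak at chr20:43691785-43692543, 25.1 kb past the start and overlapping an exon, had about 152 counts in non-senescent and 85.6 in senescent libraries. Its log2 fold change was -0.83 ± 0.21 (DESeq2 adjusted p = 0.0079). A second MYBL2 peak at chr20:43681303-43682257, inside the gene-body H3K27ac peak that was lost, had about 79.1 and 45.9 counts and a value of -0.78 ± 0.26 (adjusted p = 0.066). It was not called at an adjusted p under 0.05. At the LIN54 promoter, chr4:83012624-83013516, the means were about 92.5 and 52.4 counts and the value -0.82 ± 0.25 (adjusted p = 0.036).

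The fold change of CTCF peaks moved with base composition in this table. Outside promoters, listed enhancers and H3K27ac peaks, the median was -0.30 in the bin of highest GC content and 0.034 in the lowest. The values were therefore also computed after subtracting the median of such peaks of like GC content. The LIN54 promoter peak, with 62.9% GC, then had a log2 fold change of -0.52 (adjusted p = 0.35) and was no longer called. The 2 MYBL2 peaks, with 52.0% and 48.0% GC, had values of -0.70 (adjusted p = 0.17) and -0.80 (adjusted p = 0.018) and stayed called. No member CTCF peak was called at a fold change above 2 or in a test against a fold change of 1.5.

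The sites under these peaks were read with the CTCF core motif, allowing 1 of its 12 letters to differ. Such a match lay in 47.2% of all CTCF peaks and in 6.7% of regions of the same widths shifted by 10 kb. By the methods, the differential test used CTCF peaks kept for holding the motif, by a scan not repeated here, and whether the deposited table holds the peaks from before or after that filter is not known. The match lay in 12 of the 24 member peaks, 50.0%, among them both lost peaks of MYBL2 but not the lost peak at the LIN54 promoter. Shown is 1 match from each of the 2 lost MYBL2 peaks, the second of which holds 2, at 237 and 12 bases from the peak centres (chr20:43681528-43681557, plus strand, and chr20:43692137-43692166, minus strand), and, from peaks that were not called, the matches in the TFDP1 promoter (chr13:113586253-113586282, minus strand) and in an intron of TFDP2 (chr3:142022496-142022525, plus strand). The core is in capitals. The MYBL2 matches shown each differ from the motif at 1 letter, and the TFDP1 and TFDP2 matches at none.
MYBL2 at 15 kb: ccatatctcCCAGCAGGGGGTggctttact
MYBL2 at 25 kb: attgtctgtCCTGCAGGGGGCagcaggggg
TFDP1: agacaggtgCCAGCAGGTGGCtacagcctg
TFDP2: tcaatacacCCACCAGATGGCacacagaca

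Among the uncalled CTCF peaks, that at the LIN9 promoter (chr1:226309192-226309787, with a mean count of 28.6) had a log2 value of -0.79 ± 0.39 (DESeq2 adjusted p = 0.25), as low as the called peaks but with a wider error. This LIN9 peak had 74.2% GC, more than the LIN54 promoter peak, and its value is given without removal of the GC trend. The FOXM1 start had 26.6 mean counts of CTCF and a value of 0.21 ± 0.45 (adjusted p = 0.83). TFDP2 had 6 CTCF peaks, and the deepest, at an internal start site (chr3:141962024-141963354, 160 mean counts), had a value of 0.0084 ± 0.17. DYRK1A had 5, with the deepest (chr21:37462768-37463895, 135 mean counts) at 0.017 ± 0.19, and the LIN52 intronic peak (chr14:74110870-74112546, 204 mean counts) had 0.28 ± 0.15 (adjusted p = 0.31). CTCF peaks overlapped H3K27ac peaks in 9 pairs at these genes, and both fold changes had the same sign in 8 of them, the exception being the FOXM1 start. Several of these pairs share an H3K27ac peak, so the pairs are not independent. The share of same-sign pairs over all genes was not computed, so this count has no background. CTCF at promoters leaned below 0 in the whole table (median -0.17, quartiles -0.43 and 0.046). Some signs rest on thin CTCF peaks, at the TFDP1 (17.7 mean counts), DYRK1A (13.1) and FOXM1 (8.87, chr12:2875790-2876070) promoters and upstream of MYBL2 (13.2). These had no adjusted p and 95% intervals that held 0.

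The genes that DREAM and MuvB control were examined beside their subunits. H3K27ac fell at the main promoter peak of 18 of 20 G2/M genes and rose at none, with a median log2 fold change of -1.31. Of 18 G1/S genes, 17 had a promoter peak (all but CCNE1), and 11 fell and none rose, with a median of -0.93. At an unadjusted DESeq2 p under 0.05, 1 gene of each list was higher, PCNA (0.40 ± 0.070) and CDC25C. The median over all 13059 genes was 0.038, and 8.94% of them were lost.

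**Figure D4:**
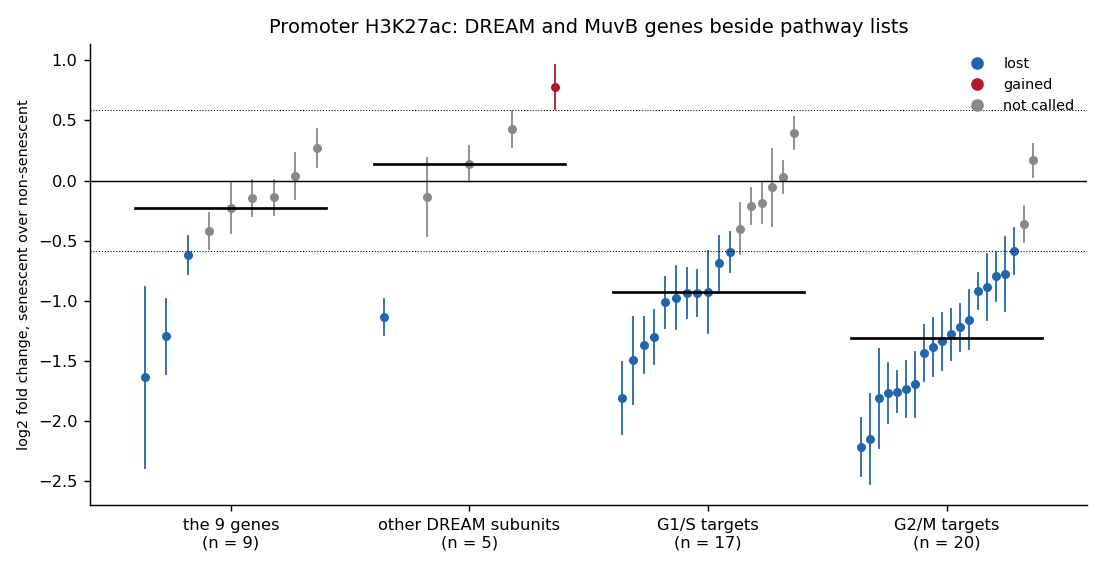
H3K27ac at the main promoter peak of the 9 genes, of the other DREAM subunits and of G1/S and G2/M target genes. The y axis is the log2 fold change of senescent over non-senescent cells with its 95% Wald interval, each point is a gene, genes are sorted by value, and the horizontal bars are medians. The medians were -0.23, 0.14, -0.93 and -1.31, and lost genes (blue) make up 3 of 9, 1 of 5, 11 of 17 and 18 of 20.

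The G2/M promoters with the smallest adjusted p were those of NUSAP1, a spindle protein (-1.75, DESeq2 adjusted p = 1.80e-87), TOP2A, topoisomerase II alpha (-2.22, 6.08e-69), and AURKB, a mitotic kinase (-1.73, 1.34e-44). The 2 that were not called were AURKA (-0.36 ± 0.075, adjusted p = 9.60e-06) and CDC25C (0.17 ± 0.070, adjusted p = 0.043). Among G1/S genes the smallest were RRM2, a subunit of ribonucleotide reductase (-1.81, 3.09e-30), and the replication licensing genes CDT1 (-1.37, 1.49e-28) and MCM6 (-1.30, 4.34e-27). The G2/M promoters ran from -2.22 to 0.17. This wide range held MYBL2 and LIN9, at -1.64 and -1.30, and every other member but LIN37 (0.27 at its deeper peak).

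Promoter H3K27ac moved in opposite directions at the genes of the DREAM pocket proteins p107 and p130. RBL1 (p107) was lost at its promoter, with a log2 fold change of -1.13 ± 0.075 (DESeq2 adjusted p = 1.65e-48). RBL2 (p130) was gained, with 0.78 ± 0.094 (adjusted p = 3.62e-15). The repressor E2F genes were not called, with -0.14 ± 0.17 for E2F4 (adjusted p = 0.54) and 0.43 ± 0.075 for E2F5 (adjusted p = 1.29e-07, under the fold threshold). The histone-binding MuvB subunit gene RBBP4 had 0.14 ± 0.076 (adjusted p = 0.14). With the 9 genes, the subunits and partners thus had 4 lost and 1 gained promoters of 14, beside 8.94% and 3.15% of all genes.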

How the data were processed

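H3K27ac and CTCF ChIP-seq had 3 non-senescent and 3 senescent libraries each, H3K4me1 and Rb had 2 and 2, and each had its own input, 40 in all. Groups follow the labels. The methods state that the authors used Trim Galore, aligned reads to hg38 (Bowtie2), removed duplicates for H3K27ac, H3K4me1 and Rb (none is stated for CTCF), called H3K27ac peaks with HOMER and CTCF and Rb peaks with MACS2, filtered CTCF peaks for the CTCF motif, and compared read counts in peaks with DESeq2. Tool versions are not given in the sources used here. The deposited signal is the authors' mean count after scaling by size factors. The fold changes and standard errors that the authors deposited are log2 values, positive where senescent cells were higher. The deposited Wald score is their ratio, and the deposited p-values are the authors', raw and Benjamini-Hochberg adjusted. The deposited region lists hold positions only. The submitters' processing notes name bcl2fastq, Bowtie, SAMtools, MACS2, HOMER, DESeq2 and deepTools.

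Since no counts per library were analysed here, the planned edgeR test was not applicable, and the values above were taken from the authors' deposited tables. Start positions were made 1-based and joined to GENCODE 44 (a promoter peak lies within 2 kb of a start site of a protein-coding transcript, an assigned nearby peak within 100 kb, minimum overlap 1 base). State means were computed from the mean count and the fold change, and 95% intervals as 1.96 standard errors on either side. Alternatives were thresholds (fold change above 2, adjusted p alone, 0.01 or 0.05), a test against a fold change of 1.5, at least 50 mean counts with p re-adjusted, windows of 1 kb and 50 kb, all transcripts, all CTCF peaks adjusted, and removal of a GC trend over 20 bins. Scripts ran in Python 3.11.15 with pandas and SciPy and were tested on simulated data. All 9 genes are named with each promoter peak, their other peaks singly where called or deepest, every other subunit, and the 3 promoters of smallest adjusted p in each target list; genes and uncalled peaks named beyond that (AURKA, CDC25C, PCNA, CCNE1 and some uncalled peaks) were chosen after their values were seen. The members and lists were chosen with earlier results of these data known.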

Additional observations from a re-analysis of the deposited data

How the results depend on the processing

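Of 78 recomputed counts, 60 stayed within 1.5 times the reported count. Many of these 60 were counts of 0 that stayed 0, which stricter thresholds could not raise. At a fold change above 2, lost and gained H3K27ac peaks outside promoters fell to 1 and 1, CTCF losses to 0, the gained subunit (RBL2) to 0 and G1/S losses to 5. In the test against a fold change of 1.5, the lost promoter peaks of the 9 genes were 1 (LIN9), their other H3K27ac losses 1 (LIN52) and gains 0, CTCF losses 0, gained subunits 0 and G1/S losses 7. By adjusted p alone, 1 promoter peak was gained (LIN37), 6 other peaks were lost, 2 subunits were gained (E2F5 added), and 1 gene was gained in each of the G1/S and G2/M lists. The gained peaks outside promoters fell to 1 (DYRK1A) at an adjusted p under 0.01 and with at least 50 mean counts. Windows, enhancer overlap, all transcripts and the adjustment over all CTCF peaks moved none of these counts by more than 1.5 times. Weighting both promoter peaks of MYBL2 by count gave -1.11. Leaving out replicates was not run, because values per library were not analysed here. No paired analysis was possible because the tables carry no column per library. The low counts behind the MYBL2 promoter and the TFDP1 intronic peak limit those values.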
